A study of Gallus gallus with 21 samples.

Results

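The retina of the chick at 6 days was compared with the retina at 1 day, within the control birds of a study on how the eye answers defocus imposed by a lens. All birds were untreated, wild-type White Leghorn chickens kept in standard light, and the time points count from postnatal day 3. The 1 day group is therefore postnatal day 4 and the 6 day group postnatal day 9, with 7 libraries each. A further 7 libraries at 3 days, postnatal day 6, served to estimate the spread between libraries, so that 14 of 21 libraries are compared here. Each library was made from total RNA of retina after removal of ribosomal RNA, with a kit that keeps the strand. Genes were included where they reached 0.5 CPM, reads scaled to a fixed library total, in at least 7 of the 21 libraries, which held for 12614 of 18631 rows of the table. The labels do not say whether each library came from a bird of its own, so the p-values measure the spread between libraries. These birds wore no lens, so that no optical treatment enters the comparison. The titles also carry a letter, L or R, which the labels do not explain, and L stood on 3 of 7 libraries at 1 day and 5 of 7 at 6 days.

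The chick retina is functional at hatching, and its neurons have stopped dividing by then, apart from a few cells at the margin. Photoreceptors still lengthen their outer segments, the stacks of membrane that hold the visual pigments, and the eye itself grows rapidly. Rods and cones detect light through opsins, a G protein called transducin, a phosphodiesterase that breaks down cyclic GMP, and channels that cyclic GMP holds open. They pass the signal on at ribbon synapses to bipolar cells, and from there it reaches the ganglion cells, whose axons form the optic nerve. Photoreceptors also hold a circadian clock, and the retina draws much of its energy from glycolysis.

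The libraries were of similar depth, with 27.7 to 40.3 megareads each, but differed in 2 respects that move with age. The listed genes held 29.9% to 31.9% of the reads of a library at 1 day and 32.9% to 34.2% at 6 days. These ranges do not meet, and the means differed by 2.42 percentage points (two-sided exact permutation test, p = 0.000583, the smallest that 3432 divisions allow). CPM divides by all reads, so this share is also the summed CPM of all rows. The median gene was 0.14 higher at 6 days on the log2 scale, and the cause of this general rise was not tested. HINTW, which lies on the female-specific W chromosome, stood at 121 to 147 CPM in 3 of 7 libraries at 1 day and in 6 of 7 at 6 days, and at no more than 0.549 CPM in the others. This division was uneven between the ages, so counts over all genes are also given with the W-linked level as a covariate. They are given too for the 13 libraries where W-linked transcripts were found, called W-positive below. For single genes and lists such values are given only in part. A library of 1 day, C10R, stood apart from the other 6 of its group by Dixon's criterion for 5 of 125 named genes, and results whose call was lost without it are given with that value.

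Far more genes were higher at 6 days than lower. With the threshold at an adjusted p of 0.05, 3779 genes rose, 30.0% of those tested, and 324 fell, 2.57%. On the scale of the test, log2(CPM + 0.5), 6 genes rose by 1 or more (0.0476%) and 10 fell by 1 or more (0.0793%). This scale understates changes of low genes, so these are not counts of doubled or halved levels. OPN1SW, with means of 0.512 CPM at 1 day and 1.55 CPM at 6 days, is not among the 6 (+0.99). With scaling by the median of ratios, under which the median gene lay at 0.00, the balance turned, with 8.25% higher and 8.91% lower. The W-linked covariate on CPM left 21.4% higher and 2.07% lower, and both corrections together left 5.03% and 5.76%. Among the W-positive libraries 6.15% were higher and 0.682% lower, 6.83% in either direction. A setting chosen after the data were seen, the W-positive libraries with median-of-ratios scaling, called 1.65%. Below, "rose" and "fell" refer to the test on CPM, and a gene is said to hold in all 3 fits where it passed in the same direction on CPM, with the W-linked covariate and with median-of-ratios scaling. That was so for 1040 genes that rose, 8.24% of those tested, and 230 that fell, 1.82%. Values of the 2 ages did not overlap, with every library of 6 days above every library of 1 day, for 9.31% of genes, and in the opposite order for 0.293%. After median-of-ratios scaling these shares were 2.26% and 2.38%. Where groups are said below not to overlap, this is on CPM. After that scaling those of CAPN5, GNB1, GUCA1B, OTX2, UNC119, ELFN1, KCNA2, CACNA1C, CHRNA4, CRY1, NCOA1 and BAG3 did overlap. So did those of DNM1, KLF6, RPL13, MRPS25, NDUFS3, MMS19, PSMD1, PSMD11, EIF2AK3, H2AFY2 and STOML2Z, whose CPM ranges below lie apart. The shares of the lists below are to be read beside these of all genes, 30.0% higher and 2.57% lower on CPM, and 8.25% and 8.91% with median-of-ratios scaling. The same holds for the shares given above for all 3 fits, for groups that did not overlap and for the W-positive libraries. CPM is not scaled by gene length, so levels of different genes are not compared. In whole tissue, fewer cells of a type and less RNA per cell cannot be told apart.

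**Figure D1:**
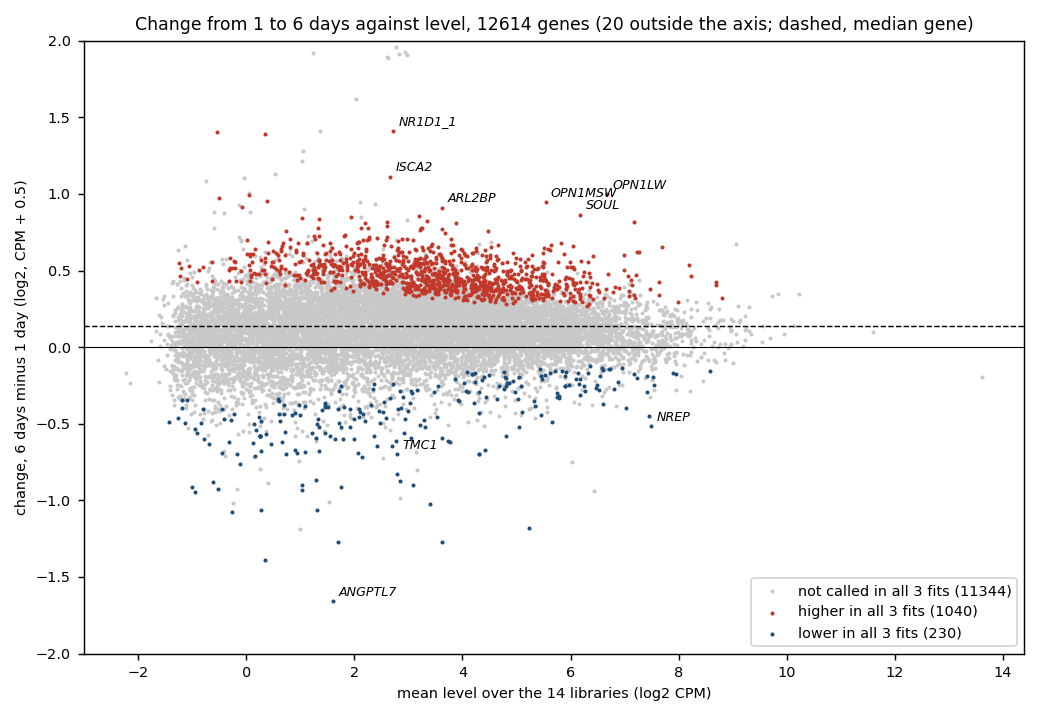
Change from 1 to 6 days (log2, CPM + 0.5, vertical axis) against the mean level of the 14 libraries (log2 CPM, horizontal axis), 1 point per gene. Red marks the 1040 genes higher and blue the 230 genes lower in all 3 fits, grey the other genes, and the dashed line the median gene at 0.14; 20 genes lie outside the axis, 17 of them on chromosome W and 3 on chromosome Z.

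The leading rises included 1 gene of the clock, 1 of mitochondria and several of photoreceptors. NR1D1_1 carries the symbol of a nuclear receptor that represses clock genes (chromosome 28, 2283345 to 2295938 on GRCg6a). It stood at 1.84 to 4.88 CPM at 1 day (median 3.63) and at 6.60 to 14.2 CPM at 6 days (median 9.12). All libraries of 6 days lay above all of 1 day (log2 change +1.41, SE 0.23, adjusted p = 0.000186), and the 3 day median of 9.14 CPM was already at the later level. The change of NR1D1_1 was +1.20 with the W-linked covariate and +0.88 in the W-positive libraries (adjusted p = 0.0141). ISCA2 builds iron-sulfur clusters in mitochondria (chromosome 5, 38118538 to 38136593). Its level was 2.95 to 4.88 CPM at 1 day (median 3.79), and it was 7.63 to 10.3 CPM at 6 days (median 8.70), again with no overlap (+1.11, SE 0.13, adjusted p = 1.68e-05). Here the 3 day median, 5.68 CPM, lay between the other ages.

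Of the cone opsins, OPN1LW and OPN1MSW, for long and medium wavelengths, were among the leading rises. OPN1LW ranged from 25.6 to 96.6 CPM at 1 day (median 77.0) and from 93.1 to 182 CPM at 6 days (median 134), so that the groups met at their edges (+1.00, SE 0.25, adjusted p = 0.00398). OPN1MSW (chromosome 26, 4556844 to 4562455) ranged from 19.1 to 41.7 CPM (median 32.5) and from 51.0 to 74.1 CPM (median 57.1), without overlap (+0.95, SE 0.16, adjusted p = 0.000199). For both, the 3 day medians of 168 and 58.4 CPM were as high as those at 6 days or higher. Among the W-positive libraries OPN1MSW (+0.57, adjusted p = 0.015) passed, and OPN1LW did not (+0.46, adjusted p = 0.0750).

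Further leading rises were those of SOUL, SMG6, SLC24A1 and CAPN5. SOUL, a heme-binding protein, went from 38.0 to 61.7 CPM (median 50.004) to 65.5 to 112 CPM (median 93.6), with its highest median, 111 CPM, at 3 days (+0.86, SE 0.13, adjusted p = 8.76e-05). SMG6, a nuclease of nonsense-mediated decay, went from 3.49 to 4.74 CPM (median 4.52) to 6.58 to 8.43 CPM (median 7.98; +0.81, SE 0.11, adjusted p = 5.80e-05). Neither gene overlapped between the ages. SLC24A1, the exchanger that removes calcium from rod outer segments, went from 8.51 to 13.7 CPM (median 10.7) to 17 to 23 CPM (median 18.1; +0.81, SE 0.13, adjusted p = 0.000181). CAPN5, a calcium-dependent protease, went from 1.96 to 4.22 CPM (median 3.19) to 4.45 to 8.17 CPM (median 5.71; +0.81, SE 0.13, adjusted p = 0.000181). These pairs of ranges also stayed apart.

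The remaining leading rises overlapped between the ages. SDK2, an adhesion protein that guides retinal neurons to their synaptic layers, ranged from 4.54 to 10.6 CPM (median 7.29) and from 8.81 to 17 CPM (median 12.8; +0.82, SE 0.15, adjusted p = 0.000412). AN1ZNF5L, a zinc finger protein, ranged from 1.59 to 4.40 CPM (median 2.45) and from 3.74 to 6.52 CPM (median 4.96; +0.85, SE 0.21, adjusted p = 0.00441). ARL2BP, a ciliary protein of photoreceptors that binds the GTPase ARL2, ranged from 5.58 to 15.3 CPM (median 7.60) and from 7.41 to 20.4 CPM (median 18.8; +0.91, SE 0.24, adjusted p = 0.00572). Its highest value at 1 day was that of C10R, without which the change was +1.06 (adjusted p = 0.00218). Leading genes were chosen for passing with each correction alone, so passing with both together is no separate support. Of the 11 leading rises reported, 10 passed with both corrections together, all but OPN1LW, and 7 passed in the W-positive libraries. Besides OPN1LW, those that did not pass there were SDK2 (+0.52, adjusted p = 0.0682), AN1ZNF5L (+0.47, adjusted p = 0.0809) and ARL2BP (+0.87, adjusted p = 0.0923). ISCA2, OPN1LW, OPN1MSW, SOUL and SMG6 overlap a gene on the other strand in the table, and CAPN5 overlaps one on its own strand, so that part of their reads could belong to a neighbour.

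**Figure D2:**
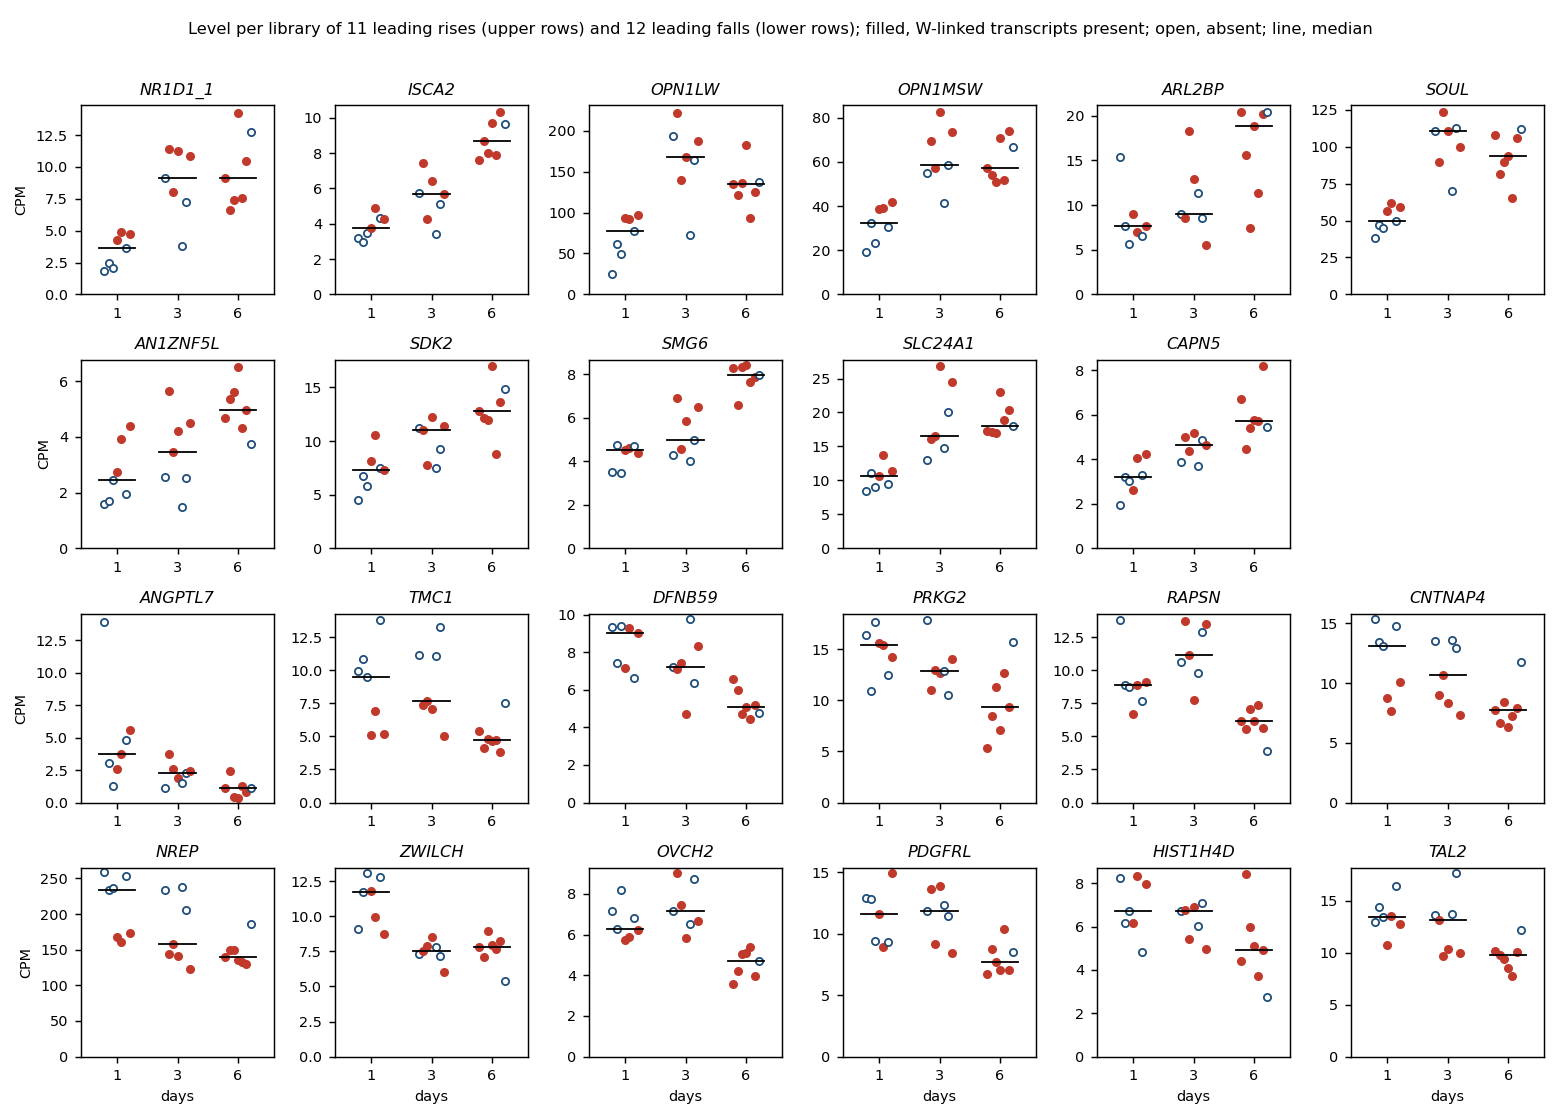
Level in CPM (vertical axes, each from 0) of 11 leading rises and the 12 leading falls in each library at 1, 3 and 6 days (horizontal axes), with the group median as a line. Filled points are libraries with W-linked transcripts and open points those without; ISCA2 at 6 days lies at 7.63 to 10.3 CPM, above all libraries of 1 day, and the Z-linked genes TMC1, CNTNAP4 and NREP are higher in open points at each age.

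The leading falls were smaller, apart from ANGPTL7, a secreted angiopoietin-like protein (chromosome 21, 4171755 to 4180470). ANGPTL7 ranged from 1.29 to 13.9 CPM at 1 day (median 3.78) and from 0.309 to 2.45 CPM at 6 days (median 1.08; -1.66, SE 0.33, adjusted p = 0.000895). The value of 13.9 CPM was that of C10R, and without this library the change was -1.38 (adjusted p = 0.00177). ANGPTL7 is among the markers set for connective tissue and ciliary body, whose 10 tested members summed to 19.3 to 35.0 CPM at 1 day and 26.3 to 35.4 CPM at 6 days. That sum did not fall with ANGPTL7. Of the 10 members 3 rose (30%, beside 30.0% of all genes) and 1, ANGPTL7, fell (10%, beside 2.57%). The rises included those of the collagen gene COL5A1 (+0.43) and the vitreous protein gene OPTC (+0.52). Neither passed with median-of-ratios scaling (adjusted p = 0.0742 and 0.0904), OPTC lost its call without C18R, C23R or C65L (adjusted p up to 0.0565), and 0 rises of the list held in all 3 fits.

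DFNB59 and OVCH2 were the leading falls whose groups did not overlap. DFNB59, which encodes pejvakin, a protein needed for hearing, went from 6.61 to 9.42 CPM (median 9.02) to 4.46 to 6.58 CPM (median 5.10; -0.61, SE 0.12, adjusted p = 0.000756). OVCH2, which encodes a secreted protease, went from 5.72 to 8.18 CPM (median 6.27) to 3.57 to 5.37 CPM (median 4.70; -0.49, SE 0.10, adjusted p = 0.00109). For OVCH2 the 3 day median was 7.16 CPM, above both ages. ZWILCH, a kinetochore protein of dividing cells, ranged from 8.73 to 13.1 CPM (median 11.7) and from 5.41 to 8.95 CPM (median 7.81; -0.51, SE 0.10, adjusted p = 0.000915). It lies beside the ribosomal protein gene RPL4, on the other strand, which rose (+0.37).

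Other falls overlapped between the ages. PRKG2, a kinase driven by cyclic GMP, ranged from 10.9 to 17.7 CPM (median 15.4) and from 5.32 to 15.7 CPM (median 9.32; -0.59, SE 0.17, adjusted p = 0.00953). RAPSN, which clusters acetylcholine receptors in muscle, ranged from 6.73 to 13.8 CPM (median 8.85) and from 3.91 to 7.38 CPM (median 6.14; -0.56, SE 0.14, adjusted p = 0.00442), and by -0.46 without C10R (adjusted p = 0.0119). RAPSN overlaps 2 genes of its own strand in the table. PDGFRL, a protein like a growth factor receptor, fell by 0.48 (adjusted p = 0.00586), and the histone gene HIST1H4D fell by 0.47 (adjusted p = 0.0283). The call of HIST1H4D was lost without any of 5 libraries, C10R (-0.42, adjusted p = 0.0621), C21R, C23R, C63R or C65L (adjusted p of 0.0532 to 0.0696).

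The falls of TMC1, CNTNAP4, NREP and TAL2 belong to chromosome Z and moved with the W-linked division. NREP, a protein of regenerating neurons (chromosome Z, 46525390 to 46544859), ranged from 161 to 259 CPM at 1 day (median 234) and from 130 to 186 CPM at 6 days (median 140; -0.52, SE 0.14, adjusted p = 0.00755). Its 6 day value of 186 CPM came from C65L, the only library of that age without W-linked transcripts. With the W-linked covariate the change of NREP was -0.27 (adjusted p = 0.00243), that of TMC1, a channel protein of hair cells, went from -0.70 to -0.35 (adjusted p = 0.0214), and that of CNTNAP4, a neuronal adhesion protein, from -0.52 to -0.25 (adjusted p = 0.0346). TAL2, a transcription factor, went from -0.46 to -0.31 (adjusted p = 0.0189). In the W-positive libraries NREP (-0.26, adjusted p = 0.0364) and TAL2 (-0.40, adjusted p = 0.0437) passed, while TMC1 (-0.29, adjusted p = 0.205) and CNTNAP4 (-0.24, adjusted p = 0.232) did not. All 12 leading falls, likewise chosen for passing with each correction alone, passed with both together, and 5 of them passed in those libraries.

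**Figure D3:**
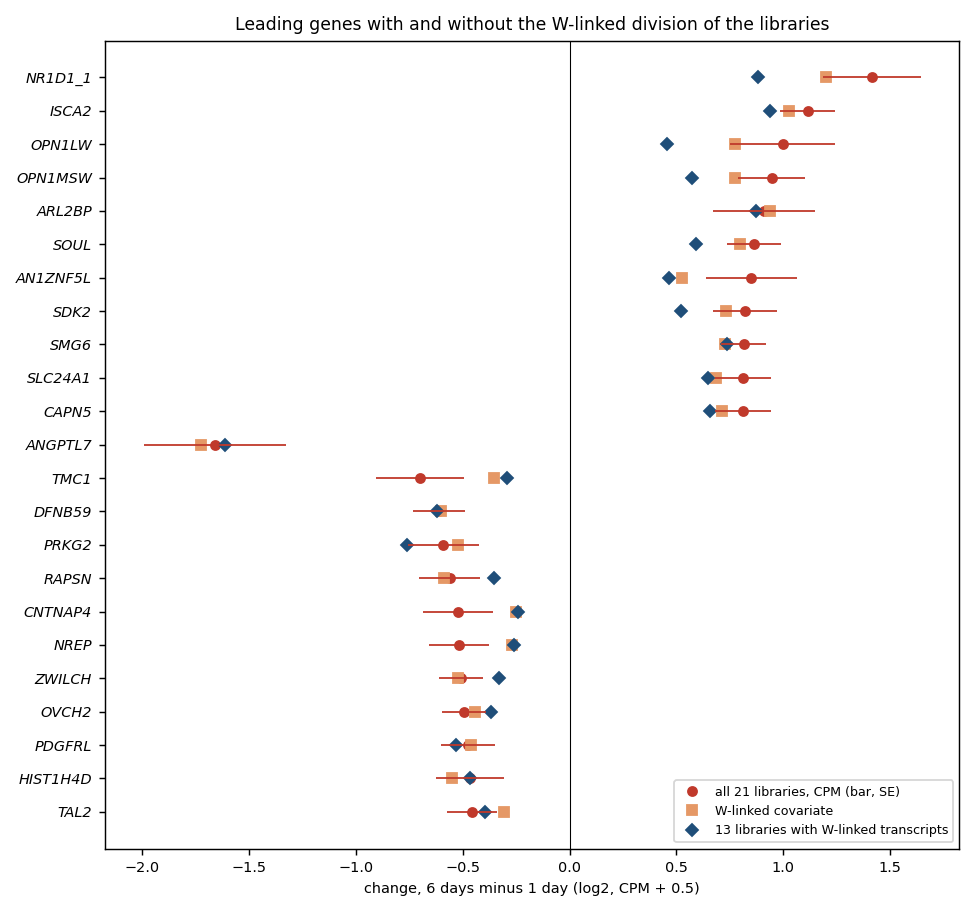
Log2 change from 1 to 6 days (horizontal axis) of 23 leading genes (vertical axis) in all libraries (red, bars of 1 SE), with the W-linked covariate (orange) and in the 13 W-positive libraries (blue). ISCA2 stays near 1 in each (+1.11, +1.03 and +0.94), whereas OPN1LW goes from +1.00 to +0.46 and TMC1 from -0.70 to -0.29.

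Among the 10 genes that fell by 1 or more on the log2 scale of the test, 6 are marked noncoding and 4 are not. These genes, and the ones that rose by as much, lie partly below the level at which leading genes were chosen. Those of this paragraph were singled out after their values were seen. The noncoding LOC107052069 on chromosome 4 went from 3.80 to 6.67 CPM (median 4.63) to 1.31 to 2.16 CPM (median 1.72), without overlap (-1.27, SE 0.12, adjusted p = 9.16e-07), and passed in the W-positive libraries (-1.33, adjusted p = 0.000972). The noncoding LOC112533362 on chromosome 1 went from 19.1 to 112 CPM (median 46.8) to 14.3 to 26.4 CPM (median 23.4), with a wide spread at 1 day (-1.18, SE 0.28, adjusted p = 0.00300). It did not pass in the W-positive libraries (-0.83, adjusted p = 0.1075). TNFSF13B, a cytokine for B cells, fell by 1.06 (adjusted p = 0.00494), and ZPBP, a protein of the sperm head, fell by 1.02 (adjusted p = 0.0274). Neither passed in the W-positive libraries (adjusted p = 0.148 and 0.374), and ZPBP also missed the threshold with the W-linked covariate (adjusted p = 0.0808).

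Most rod genes rose. Of 18 tested genes of rod phototransduction, 11 rose (61.1%, beside 30.0% of all genes) and 0 fell, and their median change was +0.37. In all 3 fits 6 held (33.3%, beside 8.24%), and in the W-positive libraries 6 passed (33.3%, beside 6.15%). GNB1, a transducin subunit, went from 91.3 to 122 CPM (median 102) to 126 to 175 CPM (median 147; +0.50, adjusted p = 7.54e-05), and GUCA1B, which activates guanylate cyclase when calcium is low, from 19.6 to 26.0 CPM (median 23.7) to 29.8 to 37.2 CPM (median 34.7; +0.56, adjusted p = 6.12e-05). Neither overlapped on CPM, though both did after median-of-ratios scaling. Named for holding in all 3 fits, after their values were seen, are also the rod transducin GNAT1 (+0.62) and the cyclase GUCY2F (+0.78). The summed level of the 18 genes still overlapped, at 1480.2 to 1780 CPM and 1612 to 2049 CPM.

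Cone genes rose in 7 of 14 cases (50%) and fell in 0, with a median of +0.21. Those that held in all 3 fits were 3 opsins: besides OPN1LW and OPN1MSW, the short-wavelength OPN1SW. The row of OPN1SW is low, at 0.280 to 0.872 CPM (median 0.429) and 0.819 to 2.68 CPM (median 1.60; +0.99, SE 0.18, adjusted p = 0.000496). It spans only 0.424 kb, beside 5.61 kb for OPN1MSW, and whether the short row accounts for the low level was not tested. PDE6H, the inhibitory subunit of the cone phosphodiesterase, went from 503 to 650.4 CPM (median 573) to 598 to 780 CPM (median 689; +0.26, adjusted p = 0.00284), but not past the threshold with median-of-ratios scaling (+0.11, adjusted p = 0.214). Among the W-positive libraries 2 of the 14 passed as higher (14.3%, beside 6.15% of all genes).

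Genes of the outer segment and its cilium, 43 tested, showed 17 rises (39.5%, beside 30.0% of all genes) and 1 fall (2.33%, beside 2.57%), with a median of +0.15, near that of all genes. With median-of-ratios scaling 4 were higher and 5 lower. Of these 4 rises and 1 fall held in all 3 fits. RP1L1, a microtubule protein of the photoreceptor axoneme, went from 131 to 183 CPM (median 165) to 226 to 278 CPM (median 244) without overlap (+0.65, SE 0.10, adjusted p = 9.17e-05). TULP1, which helps carry proteins into the outer segment, ranged from 30.9 to 43.4 CPM (median 35.8) and from 40.3 to 61.1 CPM (median 52.3; +0.48, adjusted p = 0.000698). UNC119, a carrier of transducin, went from 306 to 377 CPM (median 327) to 378 to 437 CPM (median 406), with ranges that only just parted (+0.29, adjusted p = 0.000649), and missed the threshold with median-of-ratios scaling (adjusted p = 0.122). The fall was that of IQCB1, a protein of the cilium base, named after its values were seen (-0.24, adjusted p = 0.0294).

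The visual cycle, which rebuilds the chromophore, gave 3 rises (21.4%, beside 30.0% of all genes) and 0 falls in 14. Of the rises 1 held in all 3 fits (7.14%, beside 8.24%). ABCA4, which clears retinal from outer segment discs, rose by +0.26 (adjusted p = 0.000854), and its 3 day median of 229.8 CPM exceeded both the 151 CPM of 1 day and the 185 CPM of 6 days. RPE65, the isomerase of the pigment epithelium, rose from a median of 2.05 to 3.56 CPM (+0.60, adjusted p = 0.0306), but not with the W-linked covariate (adjusted p = 0.0811) or median-of-ratios scaling (adjusted p = 0.115). The call of RPE65 was also lost without any of 6 libraries, C10R (+0.53, adjusted p = 0.0704), C17L, C18R, C21R, C63R or C64L (adjusted p from 0.0520). The 8 tested pigment epithelium markers, RPE65 included, summed to 35.8 to 42.9 CPM at 1 day and 37.8 to 44 CPM at 6 days, and the part of such cells in these values was not tested.

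Transcription factors of photoreceptors had 10 rises (45.5%, beside 30.0% of all genes) and 2 falls (9.09%, beside 2.57%) in 22, with a median of +0.26. With both corrections together 4 were higher (18.2%, beside 5.03%) and 3 lower (13.6%, beside 5.76%). The summed level of the 22 overlapped widely, at 722 to 797 CPM and 696 to 796 CPM. OTX2, needed for photoreceptor fate, went from 20.54 to 27.8 CPM (median 23.9) to 29.1 to 39.7 CPM (median 33.4) without overlap (+0.45, SE 0.08, adjusted p = 0.000332). PRDM1, which holds back bipolar fate in photoreceptor precursors, ranged from 9.82 to 19.7 CPM (median 14.4) and from 19.7 to 27.0 CPM (median 22.1; +0.62, adjusted p = 0.000946). SAMD11, a regulator of rod genes, ranged from 2.56 to 4.68 CPM (median 3.49) and from 4.66 to 8.77 CPM (median 5.97; +0.72, adjusted p = 0.00179). These 3 held in all 3 fits, together with NEUROD4 (+0.84) and ESRRB (+0.63), named after their values were seen. In the W-positive libraries 1 of the 22 passed, NEUROD4 (+0.91, adjusted p = 0.0395), beside 6.15% of all genes.

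At the ribbon synapse 8 of 24 genes rose (33.3%) and 0 fell, a share close to that of all genes, and 4 held in all 3 fits (16.7%). ELFN1, an adhesion protein by which rods recruit bipolar cells, went from 8.58 to 13.4 CPM (median 11.3) to 15.0 to 19.9 CPM (median 17.4; +0.63, SE 0.11, adjusted p = 0.000314). GNAO1, the G protein subunit behind the light response of ON bipolar cells, went from 27.3 to 32.9 CPM (median 29.6) to 36.2 to 46.8 CPM (median 39.6; +0.44, adjusted p = 0.000242). Neither overlapped. CACNA2D4, a subunit of the photoreceptor calcium channel, had its highest median at 3 days, 89.7 CPM, beside 51.0 CPM at 1 day and 67.9 CPM at 6 days (+0.38, adjusted p = 0.00239).

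General genes of vesicle release had 11 rises (39.3%, beside 30.0% of all genes) and 2 falls in 28, and 2 rises and 4 falls with median-of-ratios scaling. Of the rises 2, those of the dynamins DNM1 and DNM3, held in all 3 fits. DNM1, which pinches vesicles off the membrane, went from 63 to 79.4 CPM (median 70.7) to 83.9 to 97.6 CPM (median 93.3; +0.34, SE 0.06, adjusted p = 0.000387). AMPH, its partner, rose by +0.18 on CPM and lay at +0.03 with median-of-ratios scaling (adjusted p = 0.665).

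Voltage-gated channels had 12 rises (37.5%, near the 30.0% of all genes) and 0 falls in 32. With median-of-ratios scaling they had 4 rises and 6 falls. With both corrections they had 2 rises (6.25%, beside 5.03% of all genes) and 5 falls (15.6%, beside 5.76%). The potassium channel KCNA2 went from 9.67 to 13.7 CPM (median 11) to 13.8 to 18.1 CPM (median 15.6), and the calcium channel CACNA1C from 55.1 to 70.1 CPM (median 65.7) to 74.9 to 88.4 CPM (median 78.6). Neither overlapped, and their changes were +0.44 and +0.32 (adjusted p = 0.000763 and 0.000524). Both held in all 3 fits.

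Receptors for transmitters had 9 rises in 35 (25.7%, near the 30.0% of all genes) and 1 fall, with a median of +0.07. With median-of-ratios scaling they showed 3 rises and 10 falls. With both corrections together 1 was higher (2.86%, beside 5.03% of all genes) and 8 were lower (22.9%, beside 5.76%). GABRR1, the GABA receptor subunit typical of bipolar cells, ranged from 13.3 to 17.7 CPM (median 15.1) and from 17.3 to 20.52 CPM (median 19.3; +0.34, adjusted p = 0.00125). CHRNA4, a nicotinic receptor subunit, went from 0.804 to 1.19 CPM (median 1.12) to 1.32 to 2.71 CPM (median 1.86) without overlap (+0.62, SE 0.15, adjusted p = 0.00286). GRM3, a metabotropic glutamate receptor, rose by +0.33 (adjusted p = 0.00101) and missed the threshold with median-of-ratios scaling (adjusted p = 0.0751). GABRA2, named after its values were seen, fell from a median of 407 to 367 CPM (-0.16, adjusted p = 0.0131) and held in all 3 fits.

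Clock and melatonin genes moved both ways, with 12 rises (42.9%) and 5 falls (17.9%, beside 2.57% of all genes) in 28. With median-of-ratios scaling 5 were higher and 6 lower. Beside NR1D1_1, the activator ARNTL ranged from 11.6 to 22.4 CPM (median 15.3) and from 20.1 to 36.8 CPM (median 25.9; +0.76, SE 0.14, adjusted p = 0.000428), with a higher median of 37.7 CPM at 3 days. The repressor CRY1 went from 33.3 to 38.7 CPM (median 37.9) to 43.6 to 49.0 CPM (median 46.1) without overlap (+0.31, adjusted p = 0.000362). ARNTL held in all 3 fits and CRY1 did not (adjusted p = 0.0610 with median-of-ratios scaling). Also held in all 3 fits, and named after their values were seen, were the rises of CLOCK (+0.32), NPAS2 (+0.42) and NFIL3 (+0.58) and the falls of the repressor NR1D2 (-0.23) and the melatonin receptor MTNR1A (-0.60). MTNR1A went from 3.03 to 4.65 CPM (median 3.92) to 1.73 to 3.73 CPM (median 2.05). Among the W-positive libraries 5 of 28 rose (17.9%, beside 6.15% of all genes) and 0 fell (beside 0.682%). The labels do not give the hour of collection.

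Immediate early genes, which neurons switch on within minutes of activity, had 3 rises (20%, beside 30.0% of all genes) and 4 falls (26.7%, beside 2.57%) in 15, with a median of -0.12. NR4A3, an orphan nuclear receptor, ranged from 3.16 to 4.55 CPM (median 3.72) and from 1.81 to 3.37 CPM (median 2.81; -0.40, SE 0.11, adjusted p = 0.00583), while KLF6, a zinc finger factor, went from 7.24 to 9.34 CPM (median 8.55) to 9.91 to 12.9 CPM (median 11.4; +0.38, adjusted p = 0.00214). Both held in all 3 fits. JUN, a part of the AP-1 factor, ranged from 4.87 to 7.34 CPM and from 6.30 to 9.86 CPM (+0.30, adjusted p = 0.0241), and its call was lost without C23R, C64L or C65L (adjusted p of 0.0568 to 0.0596).

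Growth signals of the eye, from work on lens-induced growth, gave 7 rises (20%, below the 30.0% of all genes) and 2 falls (5.71%, beside 2.57%) in 35, and 2 rises and 4 falls with median-of-ratios scaling. BMP7, a growth factor of the bone morphogenetic protein family, went from 5.77 to 9.70 CPM (median 8.41) to 11.3 to 13.3 CPM (median 12.2; +0.55, SE 0.10, adjusted p = 0.000587), and the adenosine receptor ADORA2B from 2.90 to 4.47 CPM (median 3.76) to 5.08 to 6.47 CPM (median 5.81; +0.54, SE 0.11, adjusted p = 0.000748). Neither overlapped, and both passed in the W-positive libraries (adjusted p = 0.0265 and 0.0346). DRD1, a dopamine receptor, rose by +0.18 and lay at +0.02 with median-of-ratios scaling (adjusted p = 0.739). Of the falls, that of the neurotrophin BDNF held in all 3 fits (-0.46, adjusted p = 0.00782; named after its values were seen).

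Of 15 genes of thyroid hormone action 6 rose (40%, beside 30.0% of all genes) and 2 fell (13.3%, beside 2.57%), whereas 2 were higher and 3 lower with median-of-ratios scaling. The corepressor NCOR1 went from 103 to 129 CPM (median 126) to 146 to 170.0 CPM (median 164; +0.41, adjusted p = 0.000362), and the coactivator NCOA1 from 2.78 to 4.36 CPM (median 3.52) to 4.43 to 7.27 CPM (median 5.70; +0.63, adjusted p = 0.000879), both without overlap. KLF9, a target of the hormone receptor on chromosome Z, ranged from 69.1 to 85.5 CPM (median 83.8) and from 58.1 to 83.5 CPM (median 62; -0.31, adjusted p = 0.00116). Its 83.5 CPM came from C65L, and the fall held with the W-linked covariate (-0.23, adjusted p = 0.00348) and in the W-positive libraries (-0.26, adjusted p = 0.0200).

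More genes of cholesterol synthesis and of glycolysis rose than not. Of 25 cholesterol genes 13 rose (52%), 0 fell and 4 held in all 3 fits, with a median of +0.32. SREBF2, the transcription factor that turns on sterol synthesis, ranged from 6.33 to 9.24 CPM (median 7.37) and from 7.93 to 15.0 CPM (median 12.6; +0.64, SE 0.13, adjusted p = 0.000864). The enzymes FDFT1, which makes squalene, with medians of 19.7 and 30.9 CPM, and CYP51A1, which removes a methyl group from lanosterol, with medians of 4.45 and 6.37 CPM, rose by +0.59 and +0.57 (adjusted p = 0.00120 and 0.00107). All of these overlapped slightly between the ages.

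Of 25 genes of glycolysis and lactate 14 rose (56%) and 0 fell, with a median of +0.26. Values of 10 of them did not overlap (40%, beside 9.31% of all genes), 7 held in all 3 fits (28%), and 10 passed in the W-positive libraries, beside 6.15% of all genes. PGK1, phosphoglycerate kinase, went from 108 to 125 CPM (median 118) to 154 to 168 CPM (median 157; +0.44, SE 0.05, adjusted p = 4.87e-06). HK1, hexokinase, went from 92.3 to 122 CPM (median 115) to 142 to 161 CPM (median 154; +0.46, SE 0.06, adjusted p = 6.78e-05), and ENO2, the neuronal enolase, from 204 to 289 CPM (median 248) to 330.4 to 379.9 CPM (median 342; +0.46, SE 0.08, adjusted p = 0.000465). With median-of-ratios scaling 7 members were higher and 2 lower.

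The ribosomal proteins of the cytosol and of mitochondria are counted apart here, and the difference between these lists was not tested. Of 71 cytosolic ribosomal protein genes 39 rose (54.9%) and 0 fell, with a median of +0.26, and 15 did not overlap (21.1%, beside 9.31% of all genes). With median-of-ratios scaling 10 of the 71 were higher and 2 lower. RPLP0, of the stalk of the large subunit, went from 29.9 to 38.6 CPM (median 35.3) to 45.1 to 53.7 CPM (median 49.4; +0.51, SE 0.08, adjusted p = 9.80e-05), RPL4 from 111 to 124 CPM (median 119) to 145 to 161 CPM (median 151), and RPL13 from 37.1 to 45.7 CPM (median 39.9) to 48.5 to 63.8 CPM (median 51.9). In the W-positive libraries 16 of the 71 passed as higher (22.5%, beside 6.15% of all genes) and 0 as lower (beside 0.682%). Of 72 mitochondrial ribosomal protein genes 17 rose (23.6%, below the 30.0% of all genes) and 0 fell. With median-of-ratios scaling 5 of the 72 were higher and 3 lower. MRPS25 went from 1.46 to 2.55 CPM (median 1.91) to 2.57 to 3.70 CPM (median 3.20; +0.56, SE 0.11, adjusted p = 0.000759).

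Nuclear genes of oxidative phosphorylation gave 11 rises (16.2%, below the 30.0% of all genes) and 0 falls in 68, with a median of +0.13. With both corrections together they gave 0 rises and 2 falls. NDUFS3, a subunit of complex I, went from 3.34 to 4.30 CPM (median 3.85) to 4.51 to 6.45 CPM (median 5.19; +0.41, SE 0.08, adjusted p = 0.000763), and it alone of the list held in all 3 fits. Of the 24 genes of iron-sulfur cluster assembly 5 rose (20.8%, below the 30.0% of all genes) and 0 fell, so ISCA2 did not rise with the list as a whole. Beside ISCA2, MMS19, which hands clusters to DNA enzymes, went from 0.697 to 1.23 CPM (median 0.943) to 1.33 to 2.16 CPM (median 1.96; +0.69, SE 0.12, adjusted p = 0.000298). HSPA9, the mitochondrial HSP70, rose by +0.28 (adjusted p = 0.00116), and by +0.24 without C10R, its lowest value (adjusted p = 0.00293).

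Most proteasome subunits and most genes of folding in the endoplasmic reticulum rose. Of 36 proteasome subunits 21 rose (58.3%) and 0 fell, with 5 in all 3 fits. PSMD1, of the regulatory particle, went from 30.2 to 37.2 CPM (median 32.1) to 38.9 to 45.1 CPM (median 42.3; +0.35, SE 0.05, adjusted p = 0.000132), and PSMD11 from 2.44 to 3.60 CPM (median 3.11) to 3.76 to 6.37 CPM (median 4.86; +0.62, SE 0.11, adjusted p = 0.000428). The summed level of the 36 genes did not overlap, at 486 to 520.4 CPM and 567 to 602 CPM. Sums of several other lists parted too, such as mitochondrial ribosomal proteins, at 319 to 363 CPM and 373 to 398 CPM. Such sums are parts of the summed CPM of all rows, which was itself larger at 6 days. Of 32 genes of folding in the endoplasmic reticulum 18 rose (56.2%) and 0 fell, with 8 in all 3 fits (25%). HYOU1, a chaperone of the HSP70 type, went from 31.2 to 44.4 CPM (median 36.3) to 48.0 to 56.8 CPM (median 53.6; +0.52, SE 0.09, adjusted p = 0.000359), and EIF2AK3, the kinase PERK that slows translation when folding fails, from 21.8 to 26.1 CPM (median 23.9) to 28.4 to 31.9 CPM (median 29.2; +0.31, SE 0.05, adjusted p = 0.000217). Among the W-positive libraries 4 of the 32 were higher (12.5%, beside 6.15% of all genes).

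Cytosolic heat shock chaperones had 12 rises (41.4%, beside 30.0% of all genes) and 0 falls in 29. In all 3 fits 2 held (6.9%, below the 8.24% of all genes), and with median-of-ratios scaling 2 were higher and 2 lower. BAG3, a cochaperone of HSP70, went from 5.28 to 8.61 CPM (median 6.67) to 8.91 to 14.5 CPM (median 12.6), after a 3 day median of 5.34 CPM (+0.76, SE 0.15, adjusted p = 0.000695). PTGES3, the HSP90 partner p23, went from 7.47 to 10.5 CPM (median 9.78) to 11.4 to 17.4 CPM (median 16.1; +0.61, SE 0.12, adjusted p = 0.000759). Neither overlapped between the ages. Splicing regulators had 20 rises (60.6%) and 0 falls in 33, with 4 in all 3 fits (12.1%). CIRBP, an RNA-binding protein induced by cold, went from 90.8 to 144 CPM (median 126) to 175 to 205 CPM (median 177; +0.62, SE 0.10, adjusted p = 0.000138), and SRSF2, a splicing factor of the SR family, from 24.3 to 31.7 CPM (median 28.1) to 35.1 to 39.5 CPM (median 37.1; +0.38, SE 0.06, adjusted p = 9.01e-05). Both passed in the W-positive libraries.

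Several histone genes fell. Of 29 tested 7 fell (24.1%, beside 2.57% of all genes), 1 rose and 5 falls held in all 3 fits (17.2%, beside 1.82%). The linker histone HIST1H103 ranged from 2.26 to 3.51 CPM (median 2.98) and from 1.34 to 2.43 CPM (median 2.20; -0.47, SE 0.11, adjusted p = 0.00296), and HIST1H110 from 0.536 to 1.02 CPM (median 0.662) and from 0 to 0.751 CPM (median 0.309; -0.56, SE 0.15, adjusted p = 0.00757). The rise was that of H2AFY2, a macroH2A variant, from 6.44 to 8.38 CPM (median 7.67) to 9.04 to 11.7 CPM (median 10.2; +0.40, SE 0.08, adjusted p = 0.000880). Among the W-positive libraries 0 histones passed as lower, beside 0.682% of all genes. Histone genes are near copies of each other, so how reads were assigned among them is uncertain. Cell division genes did not fall with the histones, with 2 rises (9.52%, below the 30.0% of all genes) and 0 falls in 21, those of MCM5 (+0.39, adjusted p = 0.0121) and MCM4 (+0.28, adjusted p = 0.0301), both of the replication helicase, and 0 in all 3 fits. The call of MCM4 was lost without any of 7 libraries, C17L, C18R, C23R, C59L, C62L, C64L or C65L (adjusted p of 0.0528 to 0.0693).

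**Figure D4:**
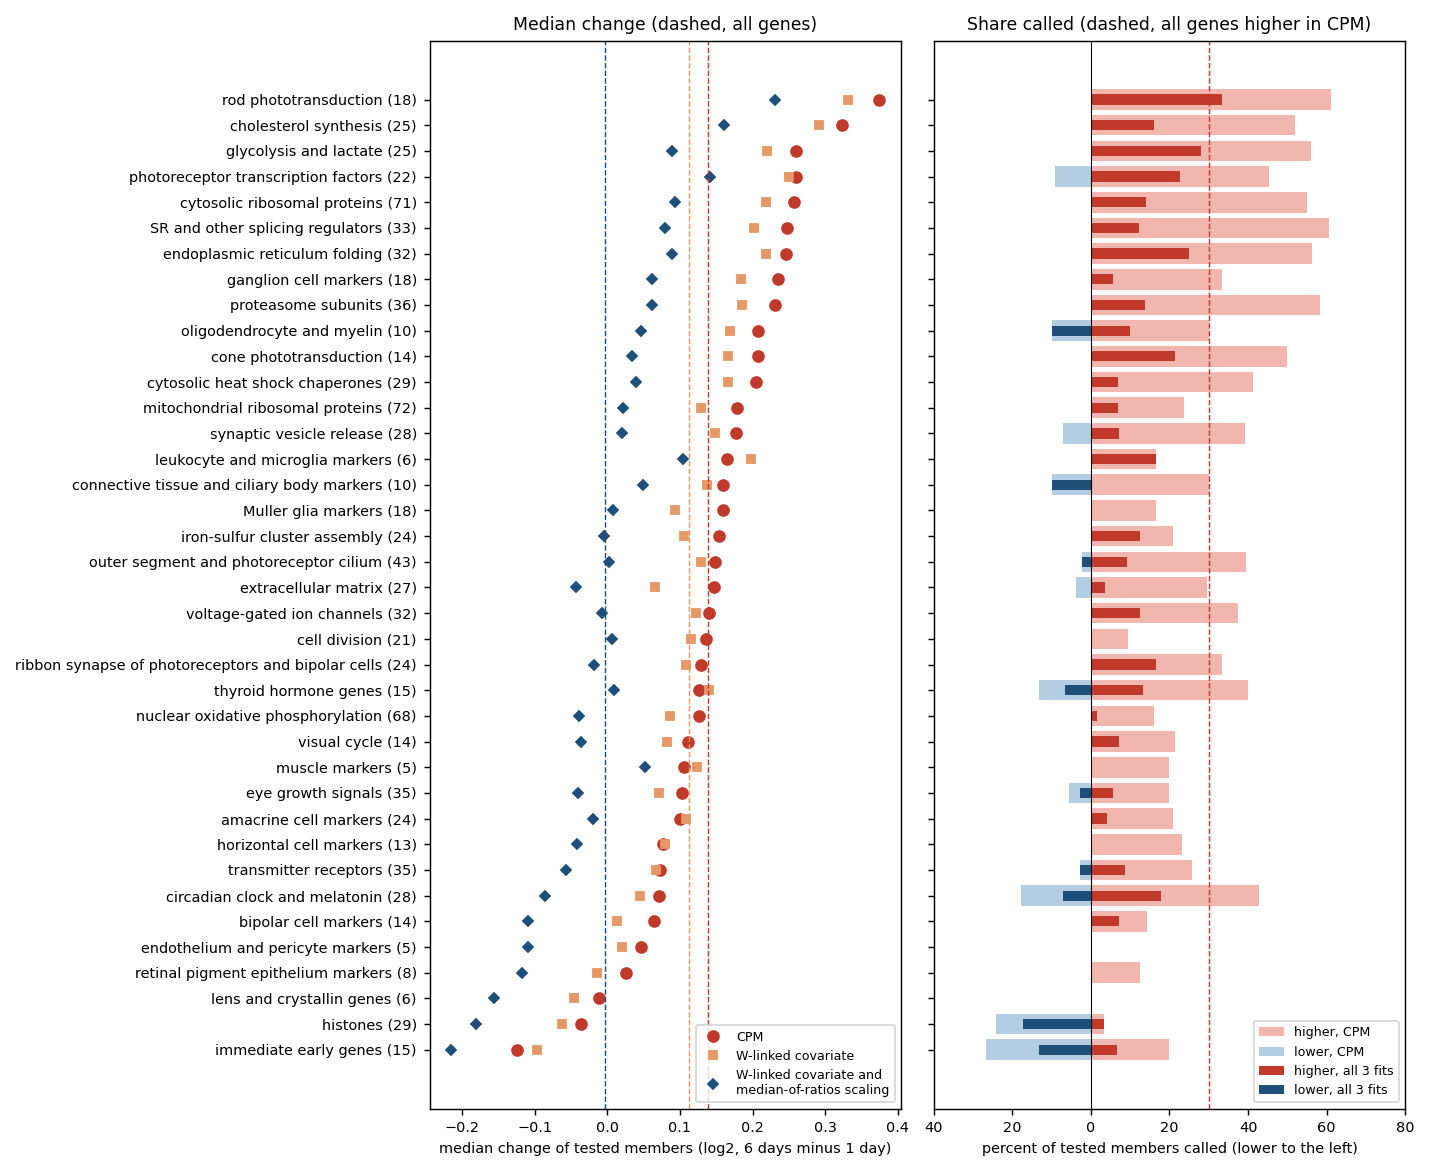
Left, median log2 change of the tested members of each gene list (members in brackets) on CPM (red), with the W-linked covariate (orange) and with that covariate and median-of-ratios scaling (blue), with dashed lines for all genes. Right, percent of members called higher (to the right) and lower (to the left) on CPM in pale colours and in all 3 fits in dark colours; rod phototransduction leads the medians at +0.37, and on CPM 24.1% of histones and 26.7% of immediate early genes fell.

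Markers of the other retinal neurons and of glia rose in shares of 14.3% to 33.3%, beside 30.0% of all genes. Rises numbered 3 of 13 for horizontal cells (23.1%), 2 of 14 for bipolar cells (14.3%), 5 of 24 for amacrine cells (20.8%), 6 of 18 for ganglion cells (33.3%) and 3 of 18 for Muller glia (16.7%), with 0 falls in each. With both corrections together bipolar cells had 1 rise and 3 falls (21.4%), amacrine cells 1 and 4 (16.7%), Muller glia 0 and 2 (11.1%), horizontal cells 0 and 1 (7.69%) and ganglion cells 0 and 0, beside 5.03% higher and 5.76% lower over all genes. In all 3 fits 1 each held for bipolar, amacrine and ganglion cells and 0 for horizontal cells and Muller glia. CHAT, the enzyme that makes acetylcholine in starburst amacrine cells, ranged from 3.77 to 5.06 CPM (median 4.39) and from 4.80 to 7.33 CPM (median 6.38; +0.43, SE 0.09, adjusted p = 0.00154). EOMES, a factor of some ganglion cells, ranged from 0.562 to 1.15 CPM (median 0.685) and from 1.02 to 1.39 CPM (median 1.09; +0.43, SE 0.11, adjusted p = 0.00577). Bipolar markers summed to 574 to 629 CPM at 1 day and 608 to 666 CPM at 6 days, which overlapped in part. Horizontal cell markers summed to 385 to 420.4 CPM and 386 to 434 CPM, which overlapped widely.

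Myelin-forming glia enter the chick retina along the optic nerve. Their 10 tested markers gave 3 rises (30%, the same as the 30.0% of all genes) and 1 fall (10%, beside 2.57%). GPR17, a receptor of their precursors, ranged from 0.887 to 1.48 CPM (median 1.10) and from 1.42 to 3.31 CPM (median 1.96; +0.60, SE 0.15, adjusted p = 0.00414). PMP2, a fatty acid carrier of myelin, ranged from 1.57 to 4.89 CPM (median 3.54) and from 1.01 to 2.40 CPM (median 1.61; -0.87, SE 0.18, adjusted p = 0.00128). Neither passed in the W-positive libraries (adjusted p = 0.293 and 0.0904). Genes of the extracellular matrix had 8 rises (29.6%, beside 30.0% of all genes) and 1 fall in 27, and LAMC1, a laminin chain, alone held in all 3 fits, from 4.32 to 7.13 CPM (median 5.75) to 6.52 to 10.8 CPM (median 9.00; +0.62, SE 0.12, adjusted p = 0.000509).

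Summed levels of markers of tissues beside the retina overlapped between the ages. Lens and crystallin genes summed to 20.7 to 27.3 CPM at 1 day and 22.9 to 26.9 CPM at 6 days with 0 calls in 6 tested, and endothelium and pericyte markers to 52.4 to 73.4 CPM and 52.9 to 76.1 CPM with 0 calls in 5. The lens gene CRYBA4 had medians of 16.0 and 17.4 CPM (+0.03, adjusted p = 0.797). KDR, the most abundant of the endothelium list, had medians of 36.2 and 38.0 CPM (+0.10, adjusted p = 0.491) and made up much of the sum of that list. Muscle markers gave 1 rise in 5 (20%, beside 30.0% of all genes), that of TPM2 (+0.20, adjusted p = 0.0383). Leukocyte markers gave 1 in 6 (16.7%), that of CD74, which guides antigen presentation (+0.62, adjusted p = 0.00671). The call of TPM2 was lost with the W-linked covariate (adjusted p = 0.0613), with median-of-ratios scaling (adjusted p = 0.624) and without any of 10 libraries, C18R, C19L, C21R, C22L, C23R, C57L, C58R, C62L, C64L or C65L (adjusted p of 0.0521 to 0.0843). Muscle markers summed to 10.4 to 15.4 CPM and 13.1 to 17.2 CPM, and leukocyte markers to 6.46 to 11.1 CPM and 8.48 to 12 CPM. Of the 2 erythroid genes in the table, the sum reached at most 0.229 CPM. No marker in these lists was at 0 in all 14 libraries, but most had a mean under 0.5 CPM. These were 11 of 17 lens genes, 10 of 15 of endothelium and pericytes, 13 of 19 of leukocytes, 7 of 11 of muscle and both erythroid genes. The part of such cells in the rises was not tested.

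Calls were unevenly spread over the genome. On chromosomes 11 to 28, 39.3% of 3988 genes rose and 0.928% fell, against 26.9% and 3.19% of 5606 genes on chromosomes 1 to 5. With both corrections together the shares were 7.80% and 2.46%, against 3.28% and 7.56%. These are counts over genes that are not independent, and no test was made of them. On chromosome Z 3.60% of 611 genes rose and 7.04% fell, which became 14.1% and 3.11% with the W-linked covariate, and 3.44% and 12.1% with both corrections together.

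On CPM more noncoding genes fell than rose, and coding genes did the opposite. Of 1017 noncoding genes 7.87% rose and 11.1% fell, while of 11597 coding genes 31.9% rose and 1.82% fell. With both corrections together 1.18% of the noncoding genes were higher and 12.3% lower. For coding genes these shares were 5.36% and 5.19%, so that their excess of rises was nearly gone. RN7SL1, an RNA that directs secreted proteins to the endoplasmic reticulum, was the most abundant row. It took 3.62% to 4.81% of the listed reads at 1 day and 3.06% to 3.89% at 6 days. The mean shares differed by -0.81 percentage points (two-sided exact permutation test, p = 0.00233). On CPM the log2 change was -0.19 (SE 0.07, adjusted p = 0.0380). That call was lost without any of 9 libraries, C10R (adjusted p = 0.0533), C17L, C18R, C19L, C21R, C59L, C62L, C63R or C64L (adjusted p of 0.0512 to 0.0834). RN7SL1 passed with median-of-ratios scaling (-0.35, adjusted p = 0.00483) and with both corrections (-0.33, adjusted p = 0.0178). It did not pass with the W-linked covariate on CPM (adjusted p = 0.0659) or in the W-positive libraries (adjusted p = 0.261). Among the genes marked noncoding with a name, STOML2Z (+0.47, adjusted p = 0.000362), TMA7 (+0.40, adjusted p = 0.00429) and RNF212B (+0.33, adjusted p = 0.00242) rose. That mark means only that a row is annotated with RNA but with no coding sequence or mRNA. Whether genes so marked code for protein was not tested. STOML2Z, on chromosome Z, went from 4.55 to 6.09 CPM (median 5.06) to 6.44 to 8.87 CPM (median 6.99) and held in all 3 fits.

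Gene span and level also divided the calls. Genes were divided by span, and by level, into groups of equal size (3153 or 3154 genes). In the group of longest span, above 44.5 kb, 27.8% rose and 3.49% fell, and with both corrections 4.47% were higher and 11% lower. In the group with spans of 18.06 to 44.48 kb 34.3% rose, and with both corrections 6.15% were higher and 5.26% lower. For spans of 7.64 to 18 kb 33.6% rose, and the corrected shares were 6.06% and 3.49%. The shortest genes, up to 7.64 kb, rose in 24.2% of cases, with corrected shares of 3.42% and 3.27%. The share that rose was 11.2% in the group of lowest level, up to 2.19 CPM, and 28.2%, 41.4% and 39.1% in the groups of rising level, where a gene is measured with more reads. With both corrections the group of lowest level had 1.43% higher and 3.20% lower, and that of highest level 5.71% and 11.4%, beside 5.03% and 5.76% of all genes. The groups of longest span, lowest level and highest level thus had more falls than rises only once the median gene was set to 0. The same was true of all genes together.

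**Figure D5:**
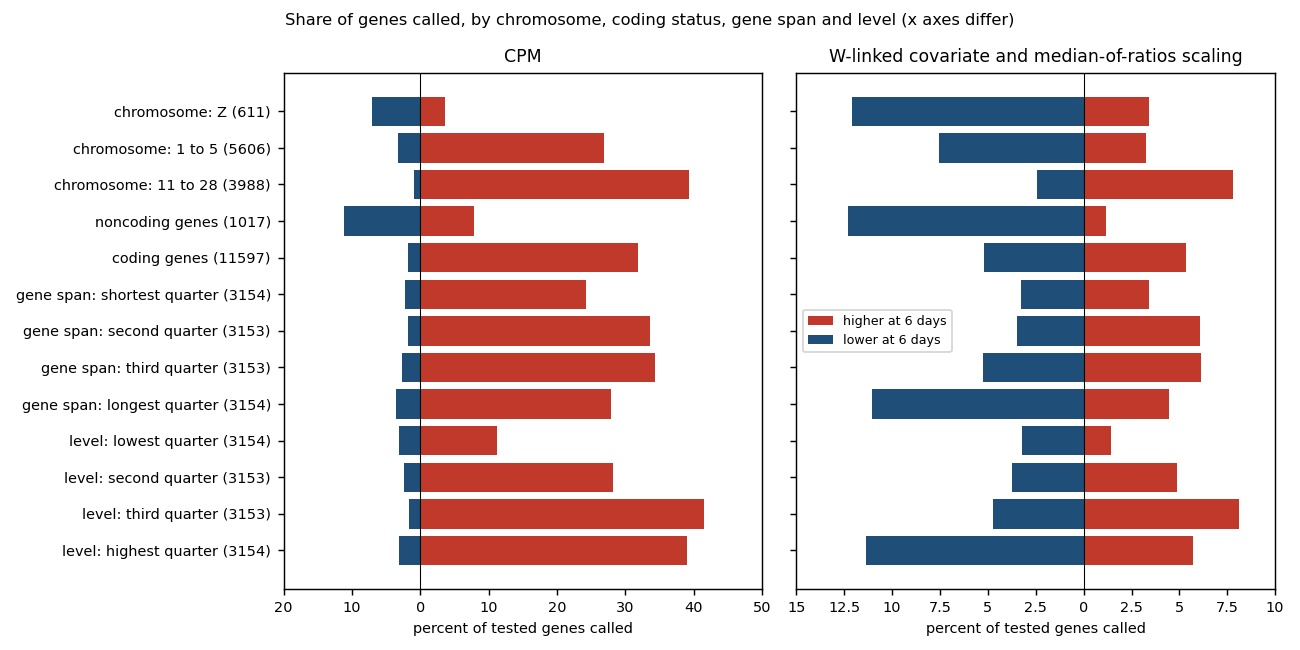
Percent of tested genes (number in brackets) called higher (red, to the right) and lower (blue, to the left) at 6 days, by chromosome, coding status, gene span and level, on CPM (left) and with the W-linked covariate and median-of-ratios scaling (right); the horizontal axes differ. Chromosomes 11 to 28 have the larger share of rises in both panels, 39.3% and 7.80%, and noncoding genes more falls than rises in both.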

How the data were processed

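Retina RNA of 21 libraries was measured by sequencing of total RNA after depletion of ribosomal RNA. The authors deposited 1 table of CPM values per gene and library, with an offset of 0.0001 that was subtracted here. Per the submitters' processing notes, STAR, Partek and GRCg6a were used; versions, annotation and use of the strand in counting are not given in the sources used here. In each library 94.5% to 95.7% of low values were integer multiples of a smallest step (tolerance 0.1 of that step), which gives the depth, 27.7 to 40.3 megareads. Since whole reads were not recovered for all values, no count test was run. Groups came from the titles. Values were analysed as log2(CPM + 0.5), a scale that understates changes of low genes, with limma 3.58.1 in R 4.3.3 over 3 groups with a mean-variance trend; p-values are two-sided and Benjamini-Hochberg adjusted over 12614 genes. In a test on simulated data, 50 genes of each size being changed, 54% of 1.25-fold, 86% of 1.5-fold and 92% of 2-fold rises and 82% of 0.667-fold falls were recovered, and 8 of 12414 unchanged genes were called. Genes of the lowest mean level were not among those changed. Noise was drawn for each gene apart, without the shifts in listed share and W-linked level seen here. The 8 calls therefore do not measure false calls that such shifts would give. The W-linked covariate is the mean log2 level of 35 W genes.

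The genes named are the 12 largest rises and falls with a symbol and a call in all 3 fits whose mean reached 5 CPM at either age; up to 3 genes per list with the smallest adjusted p, and where none passed its most abundant gene; up to 5 named noncoding genes per direction; and HINTW. Some genes that this rule names are not reported here. The lists (39, of which 38 had tested genes, 927 genes in all) and the other choices were made with earlier results of these data known. Of 125 named genes 33 overlap another gene on the other strand and 7 one on the same strand. Positions are those of the table on GRCg6a, and chromosome names came from a RefSeq gene table of another build that held 15419 of the 18631 symbols. No sequence is shown, since none was at hand.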

Additional observations from a re-analysis of the deposited data

Results flagged for a closer look

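In 16 of 250 groups of 7 libraries, 1 per named gene and age, the highest or lowest library lay apart from the others by more of the range than Dixon's 95% critical value allows; chance gives about 1 in 20. The library C10R of 1 day was the one apart in 5 of them, with the highest ANGPTL7 (13.9 CPM), ARL2BP (15.3 CPM) and RAPSN (13.8 CPM) and the lowest HSPA9 (46.8 CPM) and GRIK1 (130.1 CPM). Without it the change of GRIK1 went from +0.17 (adjusted p = 0.0286) to +0.14 (adjusted p = 0.0748), and the other 4 still passed. GRIK1 also lost its call without C63R, C64L or C65L. The library C65L, the only one of 6 days without W-linked transcripts, was apart in 4, with HINTW at 0.0928 CPM and the highest KLF9 (83.5 CPM), CNTNAP4 (11.8 CPM) and NREP (186 CPM), all on chromosome Z. Without it their changes were -0.38, -0.61 and -0.58, and HINTW passed (+4.50, adjusted p = 0.0404).

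The library C62L of 6 days held the highest ENO2 (379.9 CPM) and CIRBP (205 CPM). The library C58R of 6 days held the highest ENPP2 (21.6 CPM) and the lowest SMG6 (6.58 CPM). C57L of 6 days held the highest NDUFB9 (14.7 CPM), C18R of 1 day the lowest CRY1 (33.3 CPM) and C17L of 1 day the highest EOMES (1.15 CPM). Each of these 7 genes still passed without the library named.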

How the results depend on the processing

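The count of rises and falls depended on scaling and on the W-linked division. Instead of 4103 calls (3779 higher, 324 lower) there were 2165 (1041 and 1124) with median-of-ratios scaling, 2025 (1032 and 993) with quantile normalization, 1361 (634 and 727) with the W-linked covariate and median-of-ratios scaling, 862 (776 and 86) in the W-positive libraries, and 208 (81 and 127) there with median-of-ratios scaling, a setting chosen after the data were seen. Fewer libraries enter the last 2 settings, which share the same 13 libraries. The cause of the differences between settings was not tested. Without each library in turn, calls ranged from 3398 to 4090, rises from 3120 to 3777 and falls from 257 to 335, and the difference in listed share from 2.23 to 2.57 percentage points. Other pseudocounts, no filter, a floor of 2.5 CPM, the 2 groups alone, the title letter as a covariate, array weights and the W-linked covariate on CPM kept each count within 1.5 times. Of 122 named genes that passed, 10 lost the call without some library, and 114 passed with the W-linked covariate, 87 with median-of-ratios scaling, 77 with both and 56 in the W-positive libraries. Signs turned for CRYBA4 (-0.12 with median-of-ratios scaling, -0.13 with quantile normalization, -0.0384 with the W-linked covariate, -0.17 with that and median-of-ratios scaling, -0.0776 in the W-positive libraries with that scaling, and -0.0036 to 0.0702 without each library in turn, the lowest without C10R), and for KDR (-0.0580 with median-of-ratios scaling, -0.0443 with quantile normalization, -0.0109 with the covariate and median-of-ratios scaling, and -0.0088 in the W-positive libraries with that scaling). RN7SL1 lay at 0.00 with quantile normalization, HINTW at -0.0081 with the covariate and median-of-ratios scaling, and TFAP2B at -0.0046 in the W-positive libraries with that scaling; the cause was not tested. No paired analysis was possible because no replicate number of the titles occurs in both groups. The smallest rises simulated were recovered in 54% of cases, so small changes can be missed at this depth and number of libraries. Far fewer genes were changed in the simulation than were called here, which makes the adjusted threshold stricter there. That share therefore does not carry over to these data, where changes as small as that of TFAP2B (+0.17, adjusted p = 0.0177) passed.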
